A study of Mus musculus with 36 samples.

Results

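In bulk RNA sequencing of mouse tibia, 9 genes of the vessel wall were followed: *Acta2*, *Myh11*, *Tagln*, *Cnn1* and *Lmod1*, which build or regulate the contractile apparatus of smooth muscle, *Myocd*, the transcriptional coactivator that drives those genes, and *Rgs5*, *Pdgfrb* and *Cspg4*, which mark pericytes and other mural cells. They were the rows of the deposited expression table that carry these symbols, 9 of 56246 genes, and each symbol had a single row. The bone was tibia at 6 months of age with the epiphyses and marrow removed, so mostly cortical bone. Values are TPM, a transcript level per length of the gene and per library total, rescaled between libraries by median ratio factors.

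On a C57BL/6J background, 3 groups of 12 mice (6 males and 6 females each) were compared. WT mice were wild-type and not treated. Saline and ABE mice were LMNAG608G/G608G, carrying on both copies a transgene with the human *LMNA* gene and its G608G mutation, which makes progerin in Hutchinson-Gilford progeria syndrome. They received a retro-orbital injection on postnatal day 14 of saline or of the adenine base editor (ABE), an enzyme that turns A into G at a guided site, delivered in a pair of AAV9 vectors. The saline and ABE groups thus share the transgene, the injection and its day, and WT mice had neither. The labels name no extraction or sequencing batch, so a batch that followed genotype cannot be told apart from it. Each library is a separate mouse, and saline against WT and ABE against WT share the WT mice, as the comparisons with saline share the saline mice.

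Smooth muscle cells wrap arteries and arterioles in layers that contract and set vessel tone, and pericytes sit singly on capillaries and small venules, sharing a basement membrane with the endothelium. The contractile genes of smooth muscle are switched on by serum response factor (SRF), which binds CArG boxes in their promoters, together with myocardin, the product of *Myocd*. Pericytes are recruited by platelet-derived growth factor B from the endothelium acting on the receptor encoded by *Pdgfrb*. Mice and patients with progerin are known for loss of smooth muscle cells from large arteries, and in bone these cells line the vessels that feed the marrow and cortex. In a bulk sample, fewer cells of a type and less RNA per cell cannot be told apart.

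The libraries held between 48064068 and 116206662 reads on genes. One library has to be set apart before the results. Saline replicate 2, a female, had the highest *Acta2*, *Myh11*, *Tagln*, *Cnn1* and *Myocd* of all 36 libraries. Its *Acta2* level was 17.4 rescaled TPM against a median of 3.91 and a maximum of 7.90 in the other saline mice, a 4.45-fold excess over that median, and the excess was 5.6-fold for *Tagln* and 12.4-fold for *Cnn1*. Its *Rgs5* (7.48), *Pdgfrb* (5.51) and *Cspg4* (4.09 rescaled TPM) stayed within the range of the other saline mice. The summed level of 8 Schwann cell genes was 48.5 rescaled TPM in this library against 5.87 to 14.2 in the other saline mice. Its summed level of 16 skeletal muscle genes, 4722, lay inside the range of the others (399 to 9297). What tissue entered this library was not tested, and the results that rest on it are given with and without it. It was singled out by its levels of these same genes, so leaving it out lowers their saline values by construction. The p-values without it are therefore a description and no independent support.

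*Acta2* (ENSMUSG00000035783.9, chromosome 19, 34241090 to 34255590, minus strand, GRCm38) encodes the actin of smooth muscle and had the highest median of the 5 contractile genes among the 9 in each group. RefSeq promoter sequences on GRCm38.p6 were given for 5 of the 9 genes (*Acta2*, *Cnn1*, *Lmod1*, *Rgs5* and *Cspg4*), and in the 250 bases before the start site *Acta2* alone held CArG boxes, taken as CC and GG around a centre of A and T bases with at most 1 G or C. The reverse complement of such a box is again one, so both strands are covered. Its 2 boxes, from positions -84 and -34 relative to the start site, are shown because they are the sites in these promoters that match the SRF motif. They read as follows, with the box in capitals, and each holds 1 G or C in its centre.
Acta2 distal box, chr19:34255438-34255467, minus strand: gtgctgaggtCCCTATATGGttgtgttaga
Acta2 proximal box, chr19:34255388-34255417, minus strand: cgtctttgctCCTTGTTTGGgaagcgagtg
Of 32851 RefSeq promoters, 8.59% held such a box and 0.67% held 2 or more. GENCODE vM21 places both sites inside a first exon of *Acta2* (34255290 to 34255590) that starts upstream of the RefSeq start. A match is a description of the letters, and binding was not measured.

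**Figure D1:**
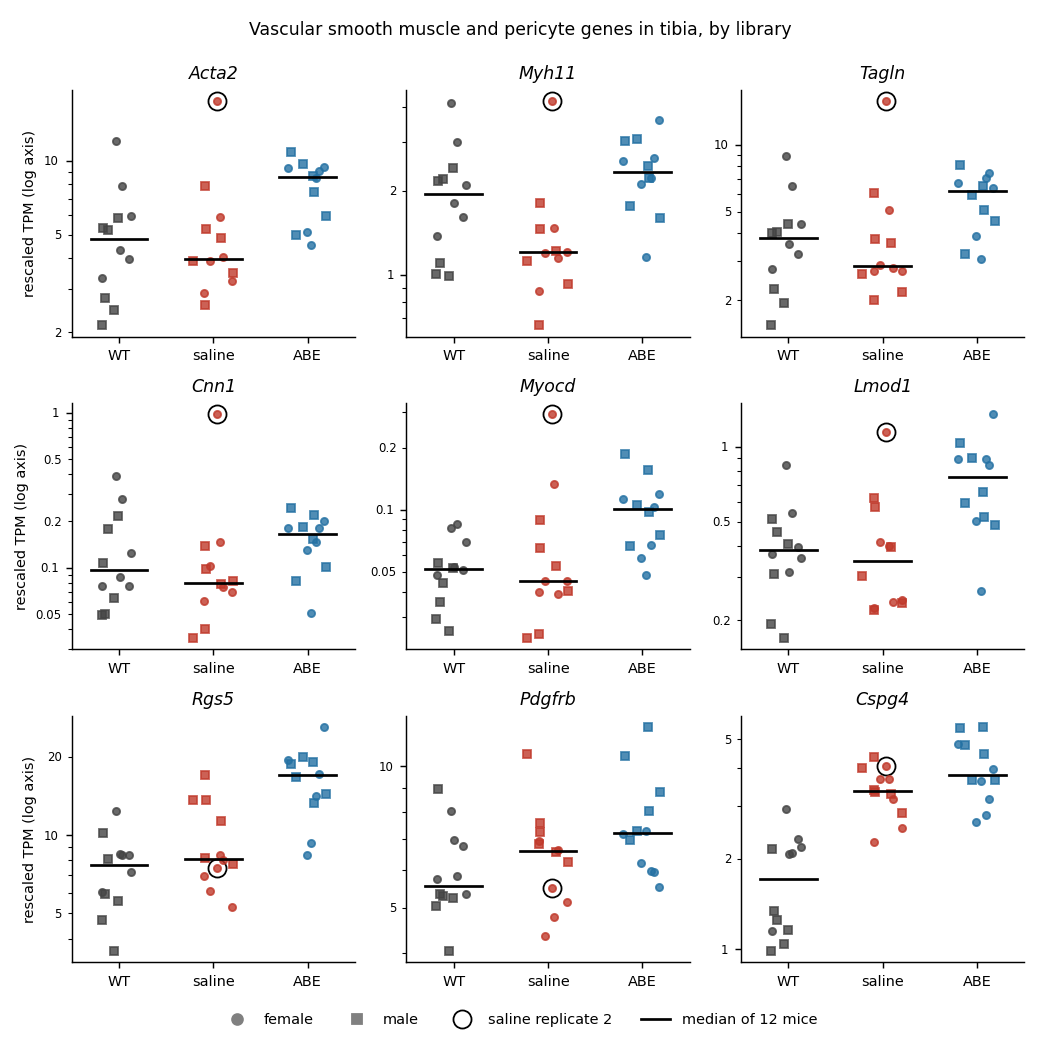
Rescaled TPM of the 9 genes in each library (log axes), grouped as WT, saline and ABE, with circles for females, squares for males and a bar at the median of 12 mice. The ringed point is saline replicate 2, which is the highest of all libraries for *Acta2*, *Myh11*, *Tagln*, *Cnn1* and *Myocd* and sits among the other saline mice for *Rgs5*, *Pdgfrb* and *Cspg4*.

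In WT bone, the levels ran in the order *Rgs5* (median 7.66 rescaled TPM), *Pdgfrb* (5.55), *Acta2* (4.79), *Tagln* (3.80), *Myh11* (1.95), *Cspg4* (1.71), *Lmod1* (0.383), *Cnn1* (0.0971) and *Myocd* (0.0515). Neighbours in this order overlapped in their ranges over the 12 mice, except *Cspg4* and *Lmod1*, whose ranges of 0.984 to 2.92 and 0.169 to 0.843 did not meet. *Rgs5* also had the highest median and *Myocd* the lowest in saline and in ABE mice. The same WT mice were low or high for most of the genes: WT replicate 6, a female, was highest for *Acta2*, *Myh11*, *Tagln*, *Cnn1*, *Lmod1*, *Rgs5* and *Cspg4*, and the males WT replicates 1 and 11 were the 2 lowest for *Acta2*, *Myh11*, *Tagln*, *Myocd*, *Lmod1*, *Rgs5*, *Pdgfrb* and *Cspg4*. *Cnn1* and *Myocd* had means under 0.5 rescaled TPM and were left out of the test across genes, which leaves 7 of the 9.

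In saline mice against WT, 1 gene of the 7 tested rose, *Cspg4*, and none passed the test as lower (limma, Benjamini-Hochberg adjusted p under 0.05), although *Myh11* was lower at an unadjusted p of 0.045. Of all 15902 genes tested, 27.7% were higher and 24.6% lower, so the called share of these vessel wall genes was below that of the whole table. Their median log2 fold change was 0.036, beside 0.019 for all genes. *Myh11* had the lowest value and became a called decrease once saline replicate 2 was left out.

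*Cspg4* (ENSMUSG00000032911.6, chromosome 9, 56865033 to 56899870) encodes NG2, a transmembrane proteoglycan of pericytes that oligodendrocyte precursors and some immature mesenchymal cells also make. It ran from 0.984 over a median of 1.71 to 2.92 rescaled TPM in WT mice, and from 2.27 over 3.37 to 4.35 in saline mice. The groups overlapped at their edges, 9 of 12 saline mice lay above the highest WT mouse and all 12 above the WT median. The log2 fold change was 0.84 ± 0.13 (SE, n = 12 and 12; limma, adjusted p = 4.2e-06), a fold of 1.79 on the log2(value + 0.5) scale that is used throughout, and 95.7% of the tested genes had a lower log2 fold change. The call held in each of the 36 fits that left out 1 library.

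*Myh11* (ENSMUSG00000018830.10, chromosome 16, 14194535 to 14291372), the smooth muscle myosin heavy chain and one of the most restricted markers of the lineage, had a lowest, median and highest level of 0.995, 1.95 and 4.13 rescaled TPM in WT mice and of 0.659, 1.20 and 4.19 in saline mice. Apart from saline replicate 2, every saline mouse lay below the WT median, and 3 lay below the lowest WT mouse. With all libraries the log2 fold change was -0.38 ± 0.18 (limma, adjusted p = 0.079). Without saline replicate 2 it was -0.50 ± 0.16 (adjusted p = 0.011), a called decrease that none of the 35 other omissions of a library gave. As that library was picked for its high level of such genes, this decrease is no independent result.

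*Acta2* had a lowest, median and highest level of 2.14, 4.79 and 12.1 in WT mice and of 2.59, 3.99 and 17.4 rescaled TPM in saline mice, with 5 of 12 saline mice above the WT median. *Tagln* (ENSMUSG00000032085.5, chromosome 9, 45929619 to 45936058), which encodes the actin-binding protein transgelin or SM22, ran from 1.54 over 3.80 to 8.92 in WT and from 2.0 over 2.83 to 15.6 in saline mice. For both genes the saline range enclosed most of the WT range, and without replicate 2 the saline mice filled its lower and middle part. Their log2 fold changes were 0.036 ± 0.24 and 0.014 ± 0.24 (limma, adjusted p = 0.91 and 0.97), and without saline replicate 2 they were -0.12 ± 0.21 and -0.16 ± 0.20, and in TPM as deposited, with that mouse kept, -0.14 and -0.16, so the sign of these small values was not stable. The 95% interval for *Acta2*, -0.45 to 0.52, leaves room for a change of either sign.

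*Lmod1* (ENSMUSG00000048096.7, chromosome 1, 135324807 to 135368065), leiomodin, an actin filament nucleator of smooth muscle, had medians of 0.383 in WT and 0.348 rescaled TPM in saline mice, with a log2 fold change of -0.0018 ± 0.13 (limma, adjusted p = 0.99). *Rgs5* (ENSMUSG00000026678.10, chromosome 1, 169655501 to 169695813), a regulator of G protein signalling and a classic pericyte marker, had medians of 7.66 and 8.08, with 3 of 12 saline mice above the highest WT mouse and a log2 fold change of 0.32 ± 0.19 (adjusted p = 0.15). *Pdgfrb* (ENSMUSG00000024620.11, chromosome 18), the receptor that pericytes need for their recruitment and that fibroblasts carry too, had medians of 5.55 and 6.61 and a log2 fold change of 0.098 ± 0.12 (adjusted p = 0.50). For these 3 genes the saline and WT ranges lay largely on top of each other.

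In ABE mice against saline mice, *Acta2*, *Myh11*, *Lmod1* and *Rgs5* rose, between 1.36-fold and 1.71-fold. *Tagln* had a positive value that did not pass with all libraries and passed with array weights (adjusted p = 0.047), which gave 5 called genes, and in 4 of the 36 fits with 1 library left out. *Pdgfrb* and *Cspg4* did not pass the test. Thus 4 of 7 genes rose and none passed as lower, beside 23.2% of all genes higher and 25.2% lower, and their median log2 fold change was 0.52 beside -0.016 for all genes. None of the 7 was called in TPM as deposited or with the level of skeletal muscle, marrow and blood, or fibroblast and tendon genes as a covariate. Of all genes 44.2%, 9.61%, 9.11% and 1.11% were called in these 4 settings. Of 16 skeletal muscle genes 13 rose in ABE against saline.

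*Acta2* in ABE mice ran from 4.52 over a median of 8.61 to 10.8 rescaled TPM, and all 12 ABE mice lay above the saline median of 3.99. The ABE mice reached neither the highest saline mouse, replicate 2, nor the lowest saline mice, so the groups overlapped. ABE against saline gave a log2 fold change of 0.62 ± 0.24 (limma, adjusted p = 0.031, 1.54-fold), and 93.3% of tested genes had a lower one. It rose to 0.78 ± 0.21 (adjusted p = 0.0041) without saline replicate 2, while leaving out saline replicate 4, 5 or 8 or ABE replicate 7 or 8 ended the call (adjusted p up to 0.059).

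*Myh11* ran from 1.16 over 2.35 to 3.6 in ABE mice, and 11 of 12 lay above the saline median of 1.20. Only saline replicate 2 stood above the ABE range. Its log2 fold change was 0.62 ± 0.18 (limma, adjusted p = 0.0062), and without saline replicate 2 it was 0.74 ± 0.16 (adjusted p = 0.0011).

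*Tagln* ran from 3.07 over 6.17 to 8.05 in ABE mice, all 12 above the saline median of 2.83. The groups differed by a log2 fold change of 0.52 ± 0.24 (limma, adjusted p = 0.069), and without saline replicate 2 it was 0.69 ± 0.20 (adjusted p = 0.0072). Leaving out saline replicate 11 or ABE replicate 2 or 3 also brought it under 0.05. Exons of *Tagln* share 1241 bases with the antisense gene *Gm48529* and 108 with *Pcsk7* on the other strand, at mean levels of 0.464 and 2.55 rescaled TPM, and whether counting used the strand is not given in the sources used here.

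*Lmod1* had a lowest, median and highest level of 0.221, 0.348 and 1.14 rescaled TPM in saline mice and of 0.263, 0.754 and 1.35 in ABE mice. In all, 11 of 12 ABE mice lay above the saline median, and 1 above the highest saline mouse. This gave a log2 fold change of 0.45 ± 0.13 (limma, adjusted p = 0.0067), which the added 0.5 compresses at this low level, and it passed in each of the 35 fits in which *Lmod1* could be tested. Without ABE replicate 1 its mean fell under the filter.

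On the log2 scale of the fit, *Rgs5* had the largest value of the 7 in ABE against saline. The constant added before the log compresses genes at low levels, such as *Lmod1*, more than *Rgs5*, so this order belongs to that scale. *Rgs5* ran from 5.27 over 8.08 to 17.1 rescaled TPM in saline mice and from 8.39 over 17.0 to 26.0 in ABE mice. Every ABE mouse lay above the saline median and 6 of 12 above the highest saline mouse, a male. The log2 fold change was 0.78 ± 0.19 (limma, adjusted p = 0.0019, 1.71-fold), higher than in 95.3% of tested genes, and the call held in each of the 36 fits with 1 library left out.

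*Pdgfrb* ran from 5.54 over 7.22 to 12.1 in ABE mice, with a log2 fold change against saline of 0.21 ± 0.12 (95% interval -0.031 to 0.45; limma, adjusted p = 0.14). *Cspg4* ran from 2.65 over 3.82 to 5.50, with 0.21 ± 0.13 (-0.059 to 0.49; adjusted p = 0.19). The ABE and saline mice overlapped through most of their ranges for both genes, and the intervals reach from about no change to a higher level in ABE mice.

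In ABE mice against WT, 6 of the 7 genes rose, *Myh11* alone did not pass, and no gene passed as lower. The share has to be read against 35% of all genes higher and 35.2% lower in this comparison. The median log2 fold change of the 7 genes was 0.54 beside -0.018 for all genes. No gene of the 7 had groups that did not overlap, against 8.6% of all genes, 6.62% in saline against WT and 0.0314% in ABE against saline.

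*Rgs5* and *Cspg4* had the largest values of the 7. *Rgs5* had a log2 fold change of 1.10 ± 0.19 (limma, adjusted p = 4.8e-06, 2.14-fold), with 10 of 12 ABE mice above the highest WT mouse. *Cspg4* had 1.06 ± 0.13 (adjusted p = 4.6e-08, 2.08-fold), also with 10 of 12 above the highest WT mouse. *Pdgfrb* rose by less, 0.31 ± 0.12 (adjusted p = 0.021), with 2 of 12 above the highest WT mouse, and its value was -0.21 in TPM as deposited and -0.013 in females alone. For *Rgs5* and *Cspg4* the ABE mice stood mostly above the WT range, and for *Pdgfrb* mostly in its upper part.

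Among the contractile genes, *Acta2* had a log2 fold change of 0.66 ± 0.24 (limma, adjusted p = 0.014), with 11 of 12 ABE mice above the WT median and none above the highest WT mouse. *Lmod1* had 0.45 ± 0.13 (adjusted p = 0.0032), with 6 of 12 above the highest WT mouse. *Tagln* had 0.54 ± 0.24 (adjusted p = 0.045) and lost its call in 16 of the 36 fits with 1 library left out (WT replicates 1, 3, 5, 8, 9, 11 and 12 and ABE replicates 1, 4, 5, 6, 7, 8, 9, 10 and 12), with adjusted p up to 0.089. *Myh11* had 0.25 ± 0.18 (95% interval -0.12 to 0.61; adjusted p = 0.23), with 9 of 12 above the WT median.

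**Figure D2:**
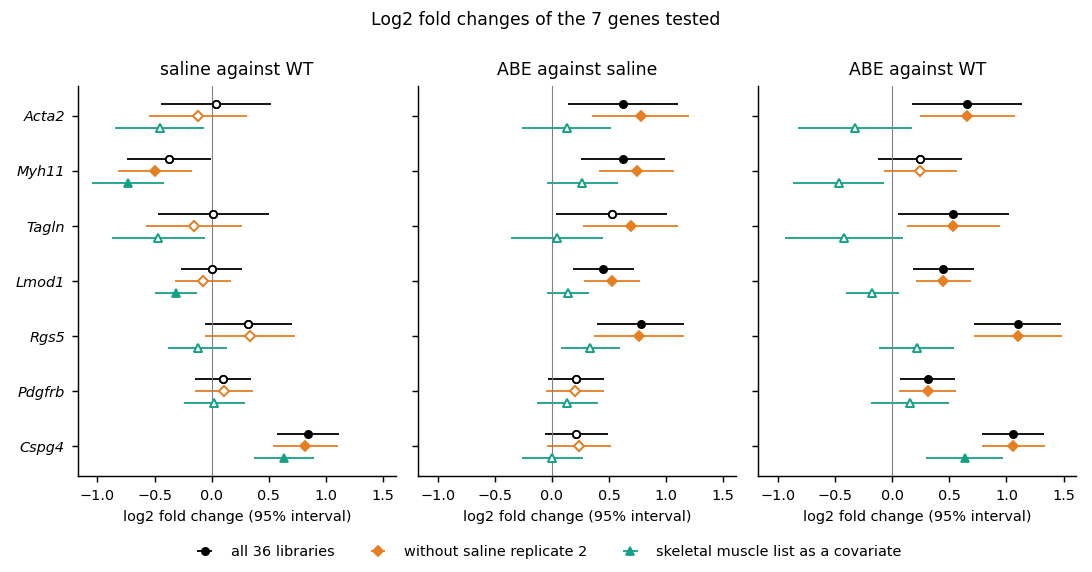
Log2 fold changes of the 7 tested genes with 95% intervals in the 3 comparisons, from all 36 libraries (circles), without saline replicate 2 (diamonds) and with the level of skeletal muscle genes as a covariate (triangles). Filled symbols passed an adjusted p of 0.05: *Cspg4* passed in both comparisons with WT under each of the 3 fits, whereas in ABE against saline no gene passed with the covariate. With the covariate *Acta2*, *Myh11*, *Tagln* and *Lmod1* stood below 0 in both comparisons with WT, and *Myh11* and *Lmod1* were already below 0 in saline against WT without it.

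The 2 genes below the filter were read from the reads recovered from the table, 27 to 625 per library for *Cnn1* and 45 to 459 for *Myocd*, in a limma-voom fit over 43628 genes in which 32.2% were called in saline against WT, 28.4% in ABE against saline and 45.3% in ABE against WT. *Myocd* (ENSMUSG00000020542.18, chromosome 11, 65176561 to 65269989) ran from 0.0258 over a median of 0.0515 to 0.0851 rescaled TPM in WT mice, from 0.0237 over 0.0450 to 0.291 in saline mice and from 0.0484 over 0.10 to 0.186 in ABE mice. All 12 ABE mice lay above the saline median and 7 of 12 above the highest WT mouse. Its log2 fold change was 0.87 ± 0.29 in ABE against WT (limma-voom, adjusted p = 0.013), a rise, and 0.70 ± 0.28 in ABE against saline (adjusted p = 0.060), which became 0.91 without saline replicate 2 (adjusted p = 0.0069). In saline against WT it was 0.17 ± 0.30 (adjusted p = 0.72).

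*Cnn1* (ENSMUSG00000001349.5, chromosome 9, 22099216 to 22109630), calponin, which damps myosin activity on actin, ran from 0.0494 over 0.0971 to 0.388 in WT mice, from 0.0351 over 0.0803 to 0.977 in saline mice and from 0.0511 over 0.166 to 0.244 rescaled TPM in ABE mice. The ABE mice lay within the WT range, 10 of 12 of them above its median. No comparison of *Cnn1* passed with all libraries. ABE against saline had a log2 fold change of 0.56 ± 0.37 (limma-voom, adjusted p = 0.27), and without saline replicate 2 it was 0.85 (adjusted p = 0.039).

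The tibia samples also held skeletal muscle RNA, and its amount moved with the groups. The summed level of 16 skeletal muscle genes ran from 238 over a median of 1178 to 3554 rescaled TPM in WT mice, from 399 over 2504 to 9297 in saline mice and from 1280 over 7339 to 15143 in ABE mice. Of these 16 genes 13 rose in saline against WT, 13 in ABE against saline and 16 in ABE against WT, and none fell. The summed level of 12 fibroblast and tendon genes had medians of 40.3, 39.2 and 78.1, that of 14 marrow and blood genes 1494, 2387 and 1450, and that of 15 endothelial genes 54.9, 57.8 and 62.3 in WT, saline and ABE mice. The ranges of the endothelial sum overlapped almost wholly (42.1 to 73.3, 45.8 to 81.8 and 51.0 to 80.4). No gene of the skeletal muscle list was at 0 in any library, and the median of *Acta1*, skeletal muscle actin, was 285, 651 and 1737 in the 3 groups. The adipocyte sum had medians of 60.2, 61.4 and 34.7 and the Schwann cell sum 9.88, 8.02 and 12.7. The osteoblast sum had medians of 1405, 1631 and 1492 and the osteocyte sum, the defining cells of cortical bone, 24.5, 373 and 271, and all 8 tested osteocyte genes rose in both comparisons with WT.

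Within each group, mice with more skeletal muscle RNA had more *Lmod1*, and in WT and ABE mice they had more *Rgs5*. Over the 12 mice of a group, Pearson's r between *Lmod1* and the mean log2 level of the skeletal muscle genes was 0.89 in WT, 0.67 in saline and 0.91 in ABE mice (permutation p = 0.00025, 0.020 and 5e-05; adjusted over 108 such relations 0.0019, 0.045 and 0.0011), with Spearman's rho of 0.78, 0.72 and 0.80 (permutation p = 0.0041, 0.011 and 0.0029; adjusted 0.022, 0.038 and 0.018). Leaving out the 2 mice farthest from the median of the muscle level gave r of 0.85, 0.71 and 0.86. *Rgs5* had r of 0.89, 0.65 and 0.87 (permutation p = 7e-05, 0.021 and 0.00017; adjusted 0.0011, 0.048 and 0.0015) and rho of 0.82, 0.48 and 0.79 (permutation p = 0.0017, 0.12 and 0.0031; adjusted 0.012, 0.16 and 0.018), and without the 2 farthest mice r was 0.81, 0.27 and 0.80, so in saline mice the relation rested on those 2. *Pdgfrb* had r of 0.70 in WT mice, 0.084 in saline and -0.20 in ABE mice (permutation p = 0.012, 0.80 and 0.54; adjusted 0.031, 0.80 and 0.57) and rho of 0.69, 0.077 and -0.57 (permutation p = 0.016, 0.82 and 0.060; adjusted 0.046, 0.82 and 0.10), and without the 2 farthest mice r was 0.54, -0.30 and -0.60. *Cspg4* had r of 0.76, 0.60 and 0.18 with the muscle level in WT, saline and ABE mice (adjusted permutation p = 0.0027, 0.069 and 0.62). Of the other contractile genes, *Acta2*, *Myh11* and *Tagln* had r of 0.81, 0.80 and 0.83 with the muscle level in WT mice and of 0.76, 0.84 and 0.70 in ABE mice (adjusted permutation p up to 0.023), and of 0.58, 0.43 and 0.52 in saline mice (adjusted permutation p from 0.091). Muscle was not the only list that these genes followed. In WT mice *Acta2*, *Myh11*, *Tagln* and *Lmod1* had r of -0.84, -0.81, -0.85 and -0.79 with the marrow and blood genes. With the fibroblast and tendon genes they had 0.85, 0.84, 0.86 and 0.88 (adjusted permutation p up to 0.0081). In saline mice they had -0.53, -0.42, -0.51 and -0.55, and 0.37, 0.19, 0.28 and 0.37 (adjusted permutation p from 0.12). In ABE mice they had -0.65, -0.79, -0.60 and -0.77, and 0.82, 0.56, 0.91 and 0.63 (adjusted permutation p from 0.0011 to 0.091). With the marrow and blood genes *Rgs5* had r of -0.83, -0.76 and -0.78 in WT, saline and ABE mice (adjusted permutation p = 0.0040, 0.0078 and 0.0095), and with the fibroblast and tendon genes 0.93, 0.83 and 0.58 (adjusted permutation p = 0.0011, 0.0041 and 0.083). With the endothelial genes *Pdgfrb* had r of 0.96, 0.63 and 0.69 (adjusted permutation p = 0.0011, 0.060 and 0.032). *Cspg4* had 0.83, 0.44 and 0.93 there (0.0031, 0.21 and 0.0011) and *Rgs5* 0.92, 0.56 and 0.58 (0.0011, 0.091 and 0.081). Without the 2 mice farthest from the endothelial median, *Pdgfrb* had -0.10 in saline mice. *Acta2*, *Myh11*, *Tagln* and *Lmod1* had 0.28 to 0.70 with this list.

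**Figure D3:**
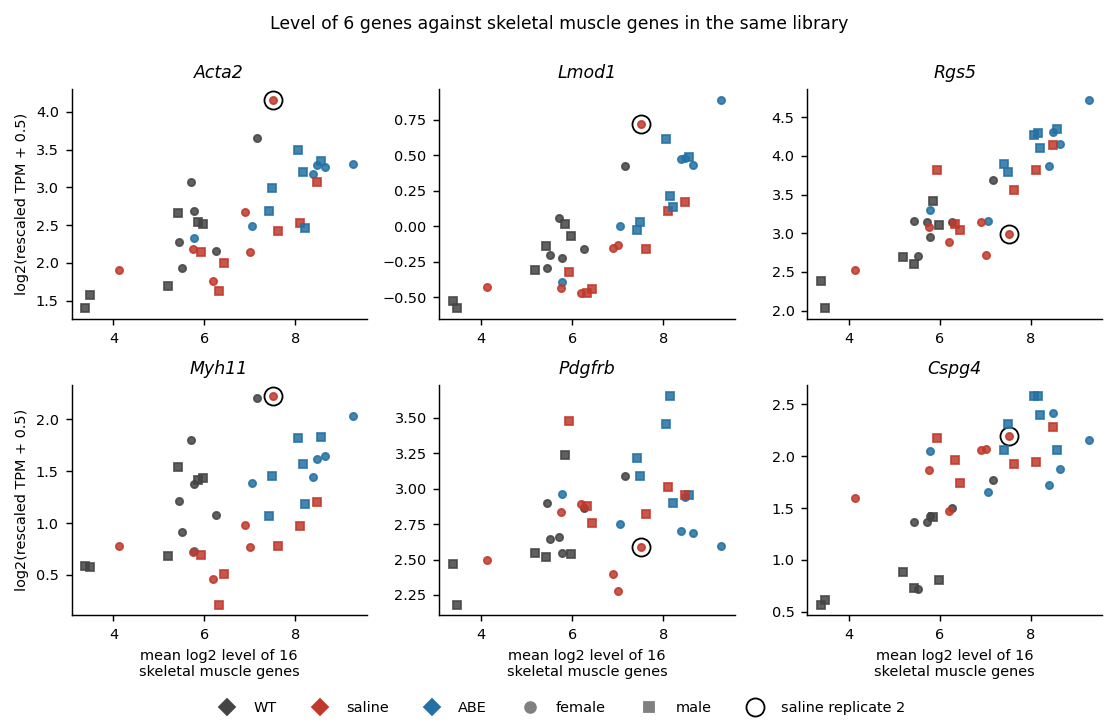
Log2(rescaled TPM + 0.5) of 6 genes against the mean log2 level of 16 skeletal muscle genes in the same library, coloured by group, with circles for females, squares for males and a ring at saline replicate 2. *Lmod1* climbs with the muscle level inside each group (r of 0.67 to 0.91) and *Rgs5* does in WT and ABE mice (0.89 and 0.87), and *Pdgfrb* in saline and ABE mice does not (r of 0.084 and -0.20).

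When the mean level of the skeletal muscle genes entered as a covariate, *Cspg4* kept its rise in saline against WT (0.63 ± 0.13; limma, adjusted p = 0.00018) and in ABE against WT (0.64 ± 0.16; adjusted p = 0.0038). *Myh11* and *Lmod1* then passed as lower in saline against WT, at -0.73 ± 0.15 (adjusted p = 0.00022) and -0.31 ± 0.091 (adjusted p = 0.0054), and *Acta2* and *Tagln* stood at -0.46 ± 0.19 and -0.47 ± 0.20 (adjusted p = 0.052 and 0.056). Under this covariate 1 of the 7 was called higher and 2 lower in saline against WT, near the share of all genes called there, 44.7%. In ABE against saline none of the 7 passed, with *Rgs5* at 0.34 ± 0.13 (adjusted p = 0.083) the 1 gene with an unadjusted p under 0.05, and 9.61% of all genes were called under this covariate. In ABE against WT only *Cspg4* passed, beside 32.5% of all genes, and here the muscle levels of the groups overlapped little, so that group and covariate were hard to separate. The marrow and blood list or the fibroblast and tendon list as the covariate also left none of the 7 in ABE against saline, where 9.11% and 1.11% of all genes were called and 1 and 0 of the 7 had an unadjusted p under 0.05, and the endothelial list left 3 there. The part of muscle, marrow or connective tissue content in these differences was not tested beyond these fits.

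The protein of smooth muscle actin is nearly identical to that of its skeletal muscle paralog, *Acta1*. Reads of one could be counted for the other where the transcripts are alike, and how alike they are was not examined. Over the 36 libraries, with the mean of each group and sex subtracted, *Acta2* had r of 0.984 with *Tagln* and 0.710 with *Acta1*. These correlations do not measure misassigned reads. In saline replicate 2, where *Acta2* was highest, *Acta1* was 1131 rescaled TPM, and 12 of the 35 other libraries were above it. The share of *Acta2* reads that came from *Acta1* was not tested.

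Among mice of the same group and sex, the contractile genes varied together more closely than with *Pdgfrb* or *Cspg4*, which is a description over 36 libraries in which all genes share a library's scaling factor. The 6 pairs of *Acta2*, *Myh11*, *Tagln* and *Lmod1* had r between 0.876 and 0.984 with a median of 0.923, and without saline replicate 2 between 0.826 and 0.977. *Rgs5* had r of 0.610 to 0.731 with these 4 genes, and 0.723 to 0.825 without that library. Within the groups *Rgs5* had 0.788 to 0.872 with them in WT and 0.651 to 0.827 in ABE mice. In saline mice it had 0.119 to 0.293, and 0.499 to 0.684 without replicate 2. *Pdgfrb* and *Cspg4* had r of 0.079 to 0.572 with the 4 genes over the 36 libraries, *Pdgfrb* being the lower. Within the groups these 2 had 0.549 to 0.738 in WT, -0.216 to 0.641 in saline and -0.198 to 0.299 in ABE mice. *Cnn1* and *Myocd*, though low, followed the contractile genes, with r of 0.886 and 0.835 to *Acta2* and rho of 0.865 and 0.786.

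**Figure D4:**
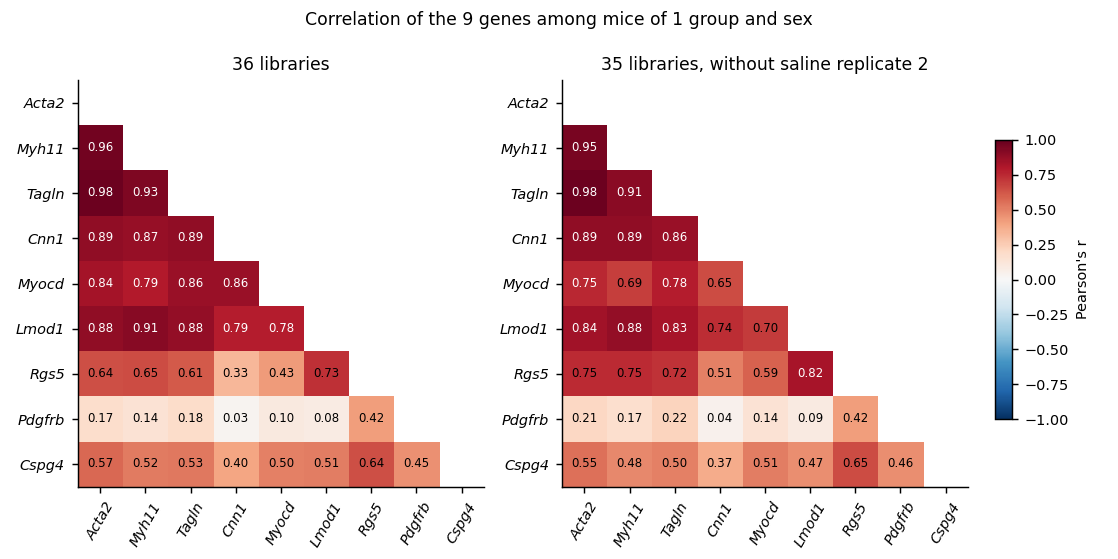
Pearson's r between the 9 genes over 36 libraries (left) and over 35 without saline replicate 2 (right), on log2(rescaled TPM + 0.5) with the mean of each group and sex subtracted. The pairs among *Acta2*, *Myh11*, *Tagln* and *Lmod1* lie between 0.876 and 0.984 on the left and between 0.826 and 0.977 on the right, and the row of *Pdgfrb* is pale in both.

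Among 12350 genes with a mean of at least 1 rescaled TPM, those most alike to *Acta2* over these libraries were *Tagln*, *Myh11* (0.962) and *Bcam* (0.919), a laminin receptor. *Lmod1* was most like *Bcam* (0.924), *Myh11* (0.913) and *Tmtc1* (0.907), and *Myocd* was most like *Apod* (0.888), a lipocalin. Without saline replicate 2, *Fbln2*, fibulin 2, stood in the place of *Bcam* for *Acta2* (0.904), and the genes most like *Lmod1* were *Tmtc1* (0.937), *Fam189a2* (0.927) and *Atp9a* (0.926). *Rgs5* was most like *Sspn* (0.921), sarcospan of the dystrophin complex, *Bmpr2* (0.920), a BMP receptor, and *Gpihbp1* (0.918), the capillary endothelial anchor of lipoprotein lipase, whose place *Zcchc24* (0.919) took without that library. *Pdgfrb* was most like *Nynrin* (0.951), *Kirrel* (0.912) and *Dlg5* (0.910), and *Cspg4* was most like *Lama4* (0.912), a laminin chain of vessel basement membranes, *Ngef* (0.912) and *Kank1* (0.905). No member of the 9 that reached a mean of 1 rescaled TPM was among the 3 genes most like *Rgs5*, *Pdgfrb* or *Cspg4*. *Lmod1*, *Cnn1* and *Myocd* lay under that mean and were not compared as candidates.

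Of the mural cell genes, *Cspg4* had a difference between ABE and WT mice that was unlike in the 2 sexes. In WT mice the median was 2.14 rescaled TPM in females and 1.20 in males, in saline mice 3.42 and 3.37, and in ABE mice 3.40 and 4.63. By median the females were higher in WT mice and the males in ABE mice, with overlapping ranges in both groups. The log2 fold change of ABE against WT was 0.62 in females and 1.5 in males, a difference of -0.88 ± 0.22 (female minus male, n = 6 each; limma interaction, adjusted p = 0.028), and 3.81% of all genes had a called sex difference there. In saline against WT it was 0.52 in females and 1.17 in males, a difference of -0.65 ± 0.22 (adjusted p = 0.097). In ABE against saline, the comparison in which both groups carry the transgene, it was 0.10 and 0.33. That difference was -0.23 ± 0.22 (limma interaction, adjusted p = 0.59). The call in ABE against WT was lost without WT replicate 6 or 11 or ABE replicate 4, 6, 8 or 12 (adjusted p up to 0.064). The mean log2 level of the skeletal muscle genes ran from 5.44 to 7.17 in WT females and from 3.37 to 5.98 in WT males. In saline mice it ran from 4.13 to 7.51 and from 5.93 to 8.47, and in ABE mice from 5.78 to 9.28 and from 7.42 to 8.56. No fit of a sex difference held this level as a covariate, so its part in the sex differences was not tested.

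*Rgs5* in saline females ran from 5.27 over 7.20 to 8.38 and in saline males from 7.76 over 12.5 to 17.1 rescaled TPM, so the sexes overlapped only between 7.76 and 8.38. The log2 fold change against WT was -0.24 in females and 0.88 in males, a difference of -1.12 ± 0.33 (limma interaction, adjusted p = 0.064, and 0.0498 in limma-voom on recovered reads), beside 1.55% of all genes called. It passed without WT replicate 5 or 10, saline replicate 10 or ABE replicate 1 or 2 (adjusted p down to 0.020). *Pdgfrb* in ABE against WT had -0.013 in females and 0.63 in males, a difference of -0.64 ± 0.21 (adjusted p = 0.073), which passed without WT replicate 10 or ABE replicate 7 (adjusted p = 0.012 and 0.044). With all libraries, no gene of the 7 other than *Cspg4* passed in any comparison, and in ABE against saline none did, where 0.0566% of all genes were called. At an unadjusted p under 0.05 there were 3 of the 7 in saline against WT, 0 in ABE against saline and 2 in ABE against WT, beside 22.9%, 15.8% and 20.1% of all genes.

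**Figure D5:**
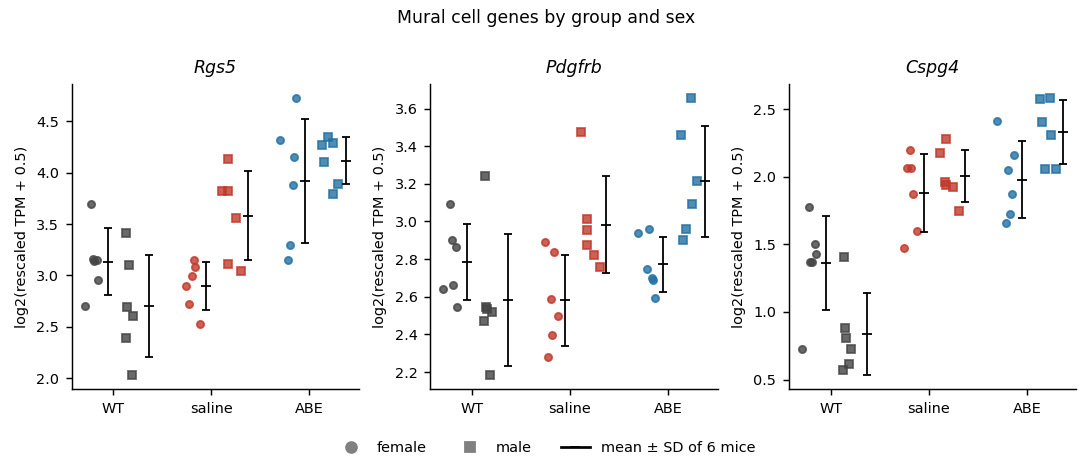
Log2(rescaled TPM + 0.5) of *Rgs5*, *Pdgfrb* and *Cspg4* in females (circles) and males (squares) of each group, with the mean ± SD of 6 mice beside the points. For *Cspg4* the WT males lie mostly below the WT females and the ABE males above most ABE females. This gives the sex difference of -0.88 in ABE against WT, groups that differ in transgene and injection as well as in the editor.

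Other genes of the pericyte, chosen as a list of 14 of which 12 passed the filter, were called at shares near those of all genes (52.4%, 48.4% and 70.2% in either direction): 6 rose and 1 fell in saline against WT, 6 rose in ABE against saline and 9 rose in ABE against WT, with median log2 fold changes of 0.20, 0.21 and 0.39. In TPM as deposited this upward balance was mostly lost, with 1 higher and 1 lower, 1 higher and 2 lower, and 3 higher and 1 lower. *Cox4i2*, a lung and pericyte isoform of a cytochrome c oxidase subunit, rose in saline against WT by 1.55 ± 0.12 (limma, adjusted p = 7.9e-12), from a WT median of 0.719 to 3.15 rescaled TPM, and the lowest saline mouse (1.89) lay above the highest WT mouse (1.43). Groups without overlap, in either direction, were found for 6.62% of all genes in saline against WT. In ABE mice the median of *Cox4i2* was 3.44. *Cd248*, endosialin of perivascular stroma, fell in saline against WT (-0.77 ± 0.13, adjusted p = 9.8e-06) from a median of 1.33 to 0.613, and rose in ABE against saline (0.50 ± 0.13, adjusted p = 0.0029) to a median of 1.13. *Abcc9*, the sulfonylurea receptor subunit of a potassium channel of pericytes and of muscle, rose in ABE against WT by 1.05 ± 0.15 (adjusted p = 2.4e-07), and *Art3*, which skeletal muscle also makes, by 1.85 ± 0.27. Without saline replicate 2 the counts were 4 higher and 1 lower, 5 higher and 1 lower, and 9 higher, and with the skeletal muscle covariate 3 higher and 1 lower, 1 higher, and 2 higher and 1 lower.

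The list of other contractile and cytoskeletal genes of smooth muscle had 22 genes, 19 of them tested: 7 rose and 5 fell in saline against WT, 10 rose and 4 fell in ABE against saline, and 11 rose and 6 fell in ABE against WT (medians 0.21, 0.33 and 0.33). In TPM as deposited the counts were 2 higher and 3 lower, 5 and 5, and 8 and 8 (medians 0.066, -0.022 and -0.13). Its largest rises were in genes that striated muscle makes as well. *Des*, desmin, rose by 1.69 ± 0.39 in saline against WT (limma, adjusted p = 0.00054) and by 2.67 ± 0.39 in ABE against WT, *Tpm2*, tropomyosin beta, by 1.13 ± 0.43 and 2.54 ± 0.43, and *Synpo2* by 1.33 ± 0.31 and *Nexn*, nexilin, by 1.28 ± 0.33 in ABE against saline. With the skeletal muscle covariate the counts were 3 higher and 4 lower, 5 higher, and 3 higher and 2 lower. RefSeq promoters were given for 18 of the 22, and *Myl9* and *Vcl* held CArG boxes.

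Of 11 tested regulators around SRF, 6 rose and 1 fell in saline against WT, 6 rose in ABE against saline, and 8 rose and 1 fell in ABE against WT, where TPM as deposited gave 3 higher and 1 lower, 1 lower, and 2 higher and 3 lower. *Srf* itself rose in ABE against saline (0.38 ± 0.087; limma, adjusted p = 0.0015), with medians of 4.69, 4.70 and 6.46 rescaled TPM in WT, saline and ABE mice. *Mef2c*, a factor of muscle and bone cells, rose by 0.97 ± 0.15 in saline against WT and by 0.58 ± 0.15 in ABE against saline, and *Klf4*, which opposes the contractile program in smooth muscle, rose by 0.49 ± 0.11 in ABE against saline. With the skeletal muscle covariate 4 rose and 2 fell, 1 rose, and 2 rose.

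Of 15 tested genes of mural cell recruitment, 9 rose and 2 fell in saline against WT, 4 rose and 2 fell in ABE against saline, and 9 rose and 2 fell in ABE against WT. In TPM as deposited the counts were 3 higher and 2 lower, 1 higher and 4 lower, and 2 higher and 5 lower, so the balance turned in both comparisons with ABE mice. The growth factor genes *Pdgfc*, *Pdgfd* and *Pdgfa* rose in saline against WT by 0.80 ± 0.078, 0.68 ± 0.085 and 0.62 ± 0.11 (limma, adjusted p = 6.7e-10, 6.5e-08 and 1.6e-05). *Pdgfb*, the ligand that recruits pericytes, was named for that role after its values were seen and had -0.080 ± 0.076 (adjusted p = 0.39). *S1pr1*, the endothelial sphingosine 1-phosphate receptor, rose by 0.76 ± 0.090 in ABE against WT, and *Tgfb1* fell by 0.35 on the log2 scale in ABE against saline. With the skeletal muscle covariate the counts were 7 higher and 1 lower, 1 lower, and 6 higher and 1 lower.

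Of 10 tested genes of vessel tone, 3 rose and 4 fell in saline against WT, 3 rose and 4 fell in ABE against saline, and 4 rose and 5 fell in ABE against WT, and in TPM as deposited 4 fell, 2 rose and 5 fell, and 2 rose and 7 fell. *P2rx1*, an ATP-gated channel of smooth muscle that platelets and neutrophils carry too, fell in each (-0.66 ± 0.16, -0.68 ± 0.16 and -1.33 ± 0.16; limma, adjusted p = 0.00098, 0.0017 and 1.8e-08), and *Tbxa2r*, the thromboxane receptor that platelets carry as well, fell by 0.89 on the log2 scale in ABE against WT. *Kcnma1*, the large calcium-activated potassium channel, rose by 0.61 ± 0.12 in ABE against saline, from a median of 0.900 to 1.75 rescaled TPM. With the skeletal muscle covariate 1 rose and 4 fell, 2 rose, and 3 rose and 4 fell. The counts of these 5 lists stand beside 27.7%, 23.2% and 35% of all genes called higher and 24.6%, 25.2% and 35.2% called lower. In either direction 29.5%, 44.2% and 67.8% were called in TPM as deposited, and 44.7%, 9.61% and 32.5% with the skeletal muscle covariate.

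The rescaling bears on the count of called genes. In TPM as deposited 29.5%, 44.2% and 67.8% of all genes were called in saline against WT, ABE against saline and ABE against WT. In ABE against saline 540 of them were higher and 6580 lower. In TPM as deposited the median of all genes was shifted by -0.13, -0.27 and -0.42 in saline against WT, ABE against saline and ABE against WT, and 1 of the 7 genes rose (*Cspg4*) and 1 fell (*Myh11*) in the first comparison, none passed in the second, where *Rgs5* had an unadjusted p of 0.049, and *Rgs5* and *Cspg4* rose in the third. Relative to those medians, the log2 fold changes in ABE against saline were 0.54 for *Acta2*, 0.60 for *Myh11*, 0.46 for *Tagln*, 0.53 for *Lmod1* and 0.67 for *Rgs5*, and *Pdgfrb* and *Cspg4*, which were below 0 before the shift was taken off, had 0.14 and 0.17. In ABE against WT they were 0.97 for *Rgs5* and 1.03 for *Cspg4*, and 0.21 for *Pdgfrb* and 0.23 for *Myh11*, which were also below 0 before. Taking off the median of all genes is close to the rescaling itself, so these values are no separate support for the main fit. ABE replicate 1 had the smallest scaling factor (0.2187), was highest in its group for *Myh11*, *Lmod1* and *Rgs5*, and lowest for *Pdgfrb*. Without it 6 genes were tested, and 1, 3 and 4 rose in the 3 comparisons.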

How the data were processed

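Poly(A) RNA of 36 tibiae (12 WT, 12 saline, 12 ABE) was sequenced by the study from stranded mRNA libraries. The authors aligned reads with STAR (2.73a per the submitters' processing notes) to GRCm38 and counted with QoRTs against GENCODE M24. The deposited table holds TPM per gene, and how TPM were made from counts is not given in the sources used here. The deposited table also gives a GC fraction and a length per gene, as the authors listed them from the annotation, used only in 1 alternative. The table held no column without a sample (0 such columns), and no pair of libraries was identical.

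From TPM, median ratio factors were computed over 23632 genes above 0 in every library, and each TPM value was divided by its library's factor. Genes with a mean of at least 0.5 rescaled TPM (15902) entered 1 fit of limma 3.58.1 (R 4.3.3, trended variances) on log2(value + 0.5) over all 36 libraries, with sex as a covariate as in the study. P-values were adjusted by the Benjamini-Hochberg method over all genes, with a threshold of 0.05 and 95% intervals. Sex differences were interaction terms in a fit on the 6 means of group and sex. Whole reads were recovered from TPM and gene length less 218 bases, which gave 48064068 to 116206662 reads a library and fed limma-voom as an alternative. Of values above 0, 100% lay within 0.01 of a whole number or, at high read counts, within a tolerance that grew with the reads. Correlations used scipy 1.17.1 with 100000 permutations. Other lists were named by up to 3 genes per list and comparison with the largest called change and a group mean of at least 1, and the likeness rule took the 3 genes with the highest r. The cell type lists (skeletal muscle, fibroblast and tendon, marrow and blood, endothelial, adipocyte, Schwann cell, osteocyte, osteoblast) were summed or averaged per library. Positions came from GENCODE vM21 (GRCm38), which holds all 9 identifiers at the same version, and promoters from RefSeq. The scripts were tested on simulated data. The 9 genes, the lists and the tests were chosen with earlier results of these data known. Alternatives covered pseudocount, filter, scaling, GC content and length, array weights, covariates, each sex alone and each library left out. The fibroblast and tendon covariate, the unfiltered fit on reads, the sex differences with a library left out and the alternatives for the other lists were added after seeing the data.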

Additional observations from a re-analysis of the deposited data

Results flagged for a closer look

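The change of *Cspg4* in ABE against WT differed between the sexes by the test of the interaction (limma, adjusted p = 0.028). The log2 fold change was 0.62 in 6 females against 6 and 1.5 in 6 males against 6, so the female minus male difference was -0.88 (95% interval -1.34 to -0.42). These groups differ in transgene and injection as well as in the editor, and in ABE against saline the difference was -0.23 (limma interaction, adjusted p = 0.59). Of the females the WT mice ran from 1.15 to 2.92 and the ABE mice from 2.65 to 4.83 rescaled TPM, and of the males from 0.984 to 2.16 and from 3.66 to 5.50. The difference was -1.04 with a pseudocount of 0.1, -0.74 with 1, -1.32 in TPM as deposited and -1.09 in limma-voom on recovered reads (adjusted p between 0.024 and 0.030), and lay between -1.01 and -0.80 with 1 library left out, where 6 of 36 fits lost the call. None of these fits held the skeletal muscle level as a covariate, and that level also differed between the sexes of the WT mice.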

How the results depend on the processing

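Of 366 log2 fold changes of the 7 genes under alternatives other than leaving out a library, 272 kept their direction and side of the threshold, and the causes of the changes below were not tested. The number of the 7 genes called in saline against WT (1), ABE against saline (4) and ABE against WT (6) stood beside 52.4%, 48.4% and 70.2% of all genes. It became 0, 2 and 3 with a filter at 5 TPM, which tests fewer of them (52.3%, 45.4% and 66.7% of all genes). In TPM as deposited it was 2, 0 and 2 (29.5%, 44.2% and 67.8%). With the skeletal muscle covariate it was 3, 0 and 1 (44.7%, 9.61% and 32.5%). The marrow and blood covariate gave 2, 0 and 3 (64.6%, 9.11% and 66.7%) and the fibroblast and tendon covariate 2, 0 and 2 (62.1%, 1.11% and 61.5%). In saline against WT it was 2 with the endothelial covariate, without the 50 most abundant and mitochondrial genes, with array weights and in males alone. Of all genes 52.8%, 57.6%, 64.3% and 54.6% were called in these 4 settings. In ABE against saline the number was 1 in females and 2 in males alone (30.4% and 20.5% of all genes). In ABE against WT it was 2 with the endothelial covariate and 2 in females alone (64.8% and 54.4%). With 1 library left out it was 1 to 2, 3 to 5 and 4 to 6, beside 48.7% to 55.8%, 42.2% to 53.2% and 68.9% to 71.6% of all genes. The number of genes with a sex difference was 1 in saline against WT with limma-voom, and with 1 library left out 0 to 3 in saline against WT and 0 to 2 in ABE against WT.

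In saline against WT the log2 fold change turned sign for *Acta2* in TPM as deposited (-0.14), after quantile normalization (-0.019), with the GC and length trend removed (-0.066), with the skeletal muscle (-0.46) and endothelial (-0.087) covariates and in females alone (-0.16). *Tagln* turned under the same settings (-0.16, -0.033, -0.046, -0.47, -0.10 and -0.11) and with array weights (-0.013). *Lmod1* turned with a pseudocount of 1 (0.0026), without the most abundant genes (0.059), with array weights (0.0018), with the marrow and blood (0.063) and fibroblast and tendon (0.14) covariates and in males (0.080). *Rgs5* turned with the skeletal muscle covariate (-0.12) and in females (-0.24), *Pdgfrb* in TPM as deposited (-0.082) and in females (-0.20), and *Myocd* in reads without saline replicate 2 (-0.028). With 1 library left out *Acta2* ran from -0.12 to 0.15, *Tagln* from -0.16 to 0.11 and *Lmod1* from -0.080 to 0.049. In ABE against saline the fibroblast and tendon covariate turned *Acta2* (-0.11), *Tagln* (-0.21), *Pdgfrb* (-0.078) and *Cspg4* (-0.13), TPM as deposited turned *Pdgfrb* (-0.13) and *Cspg4* (-0.10), and the marrow and blood covariate turned *Cspg4* (-0.0083). In ABE against WT the skeletal muscle covariate turned *Acta2* (-0.33), *Myh11* (-0.47), *Tagln* (-0.42) and *Lmod1* (-0.17), TPM as deposited turned *Myh11* (-0.20) and *Pdgfrb* (-0.21), the fibroblast and tendon covariate turned *Myh11* (-0.043), and *Pdgfrb* stood at -0.013 in females. No paired analysis was possible because the columns carry mouse numbers that the groups do not share. The study describes the mice as littermates, but the labels name no litter, so litter was not modelled. Depth limits *Cnn1* and *Myocd*, with 27 to 625 and 45 to 459 reads a library.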
